A study of Homo sapiens with 12 samples.

Results

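The collagens were followed here as the 43 genes, of 51838 in the deposited count table, whose symbol reads COL, a number, A and a number, which takes in the alpha chains of the named collagen types. The RNA came from HCC70 and MDA-MB-231, established human cell lines that the labels both give as basal-like breast cancer, harvested 4 h after addition of either dexamethasone at 100 nM or ethanol alone as vehicle. Dexamethasone (DEX) is a synthetic glucocorticoid that activates the glucocorticoid receptor. Each of the 4 groups of line and treatment had 3 libraries, 12 in all. The media differed, RPMI for HCC70 and DMEM for MDA-MB-231, both with serum, so a difference of line and one of medium cannot be told apart, and each line stands for 1 tumour only. Whether the 3 replicates of a group were independent cultures is not stated in the labels; the p-values rest on the spread among these libraries, and that spread may be technical only. The comparisons were the collagen levels of the lines in vehicle, and DEX against vehicle within each line.

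Collagens are the main structural proteins of the extracellular matrix, and each molecule is built from 3 alpha chains that may be copies of the same gene product or come from different genes. Fibrillar collagens form the fibres of connective tissue, type IV collagen forms the sheet of the basement membrane under epithelia, and smaller families bind fibrils, anchor the basement membrane or span the cell membrane. In breast tumours most fibrillar collagen is laid down by fibroblasts of the stroma, while carcinoma cells make a varying share of basement membrane and transmembrane collagens.

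Total counts ran from 106345287 to 123218973 per library. Levels are given as CPM, each count set against its library total, scaled by TMM, a correction for library composition. FKBP5 and TSC22D3, known glucocorticoid receptor targets, rose with DEX in both lines: FKBP5 from a mean of 35.2 to 218 CPM in HCC70 and from 56.2 to 1119 CPM in MDA-MB-231, and TSC22D3 from 152 to 409 CPM and from 5.69 to 164 CPM. HCC70 held the basal keratin KRT5 at 2595 CPM and the epithelial cadherin CDH1 at 517 CPM in vehicle, against 0.804 and 2.28 CPM in MDA-MB-231, which held the mesenchymal vimentin gene VIM at 2212 CPM against 145 CPM. The 5 epithelial markers examined (EPCAM, CDH1, KRT8, KRT18 and KRT19) summed to 4369 to 4523 CPM in HCC70 vehicle and 1831 to 2106 CPM in MDA-MB-231 vehicle. Among them KRT8 held 1164 and 818 CPM, and KRT18 went the other way, at 435 and 706 CPM. All 5 fibroblast markers examined (DCN, LUM, PDGFRB, THY1 and FAP) summed to 0.297 to 0.487 CPM in the HCC70 vehicle libraries, with DCN and LUM at 0, and to 6.46 to 10.8 CPM in those of MDA-MB-231, nearly all of it PDGFRB. The MDA-MB-231 libraries of a group differed from each other: vehicle library 1 and DEX library 2 had 21 and 24 of 29 tested collagens above the group mean, and vehicle library 3 and DEX library 1 had 8 and 3. Library values also followed the GC content of the genes, as given below for each library. Counts of calls are therefore also given without vehicle 1 and DEX 2, called the 2 high libraries below, a choice made after seeing the data, and with single libraries left out.

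Of the 43 collagens, 29 had enough counts to be tested and 14 did not. COL2A1 and COL6A5 had 0 counts in all 12 libraries, and no untested member exceeded 31 counts in any library. The untested members were COL3A1, COL11A1, COL24A1 and COL5A3 of the fibrillar class besides COL2A1, COL6A6 besides COL6A5, the fibril-associated COL9A1, COL14A1, COL19A1 and COL22A1, the transmembrane COL23A1 and COL25A1, and COL28A1. In vehicle, 16 collagens reached a mean of 1 CPM in HCC70 and 20 in MDA-MB-231. They shared 12, while 4 reached that level in HCC70 only and 8 in MDA-MB-231 only. At 10 CPM the numbers were 7 in HCC70 and 16 in MDA-MB-231. The summed level of all 43 was 706.5 to 839 CPM in the HCC70 vehicle libraries and 2186 to 3470 CPM in those of MDA-MB-231, so the ranges of the lines did not overlap.

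Between the lines in vehicle, 24 of the 29 tested collagens passed an adjusted p of 0.05 in edgeR's quasi-likelihood test, 7 higher and 17 lower in HCC70. Over all 28141 genes tested, 79.2% passed this comparison, 39.2% higher and 40% lower in HCC70, so passing it was the rule for a gene in this pair of lines. The median log2 difference, HCC70 minus MDA-MB-231, was -2.48 over the 29 collagens and -0.03 over all genes tested. The 7 higher in HCC70 were COL1A1, COL5A2, COL11A2, COL4A5, COL4A6, COL8A2 and COL10A1. In bulk RNA, fewer cells with a transcript and less of it per cell cannot be told apart. Among alternatives in which the gene was still tested, COL10A1 was the single call lost, at an adjusted p of 0.0617 in edgeR without MDA-MB-231 vehicle library 2. With a filter of 5 CPM in 3 libraries, 18 collagens were tested and 17 passed, 16 of them among the 24, where 86.8% of all genes tested passed. Without the 2 high libraries, 25 passed, among them all 24, where 79.4% of all genes did.

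**Figure D1:**
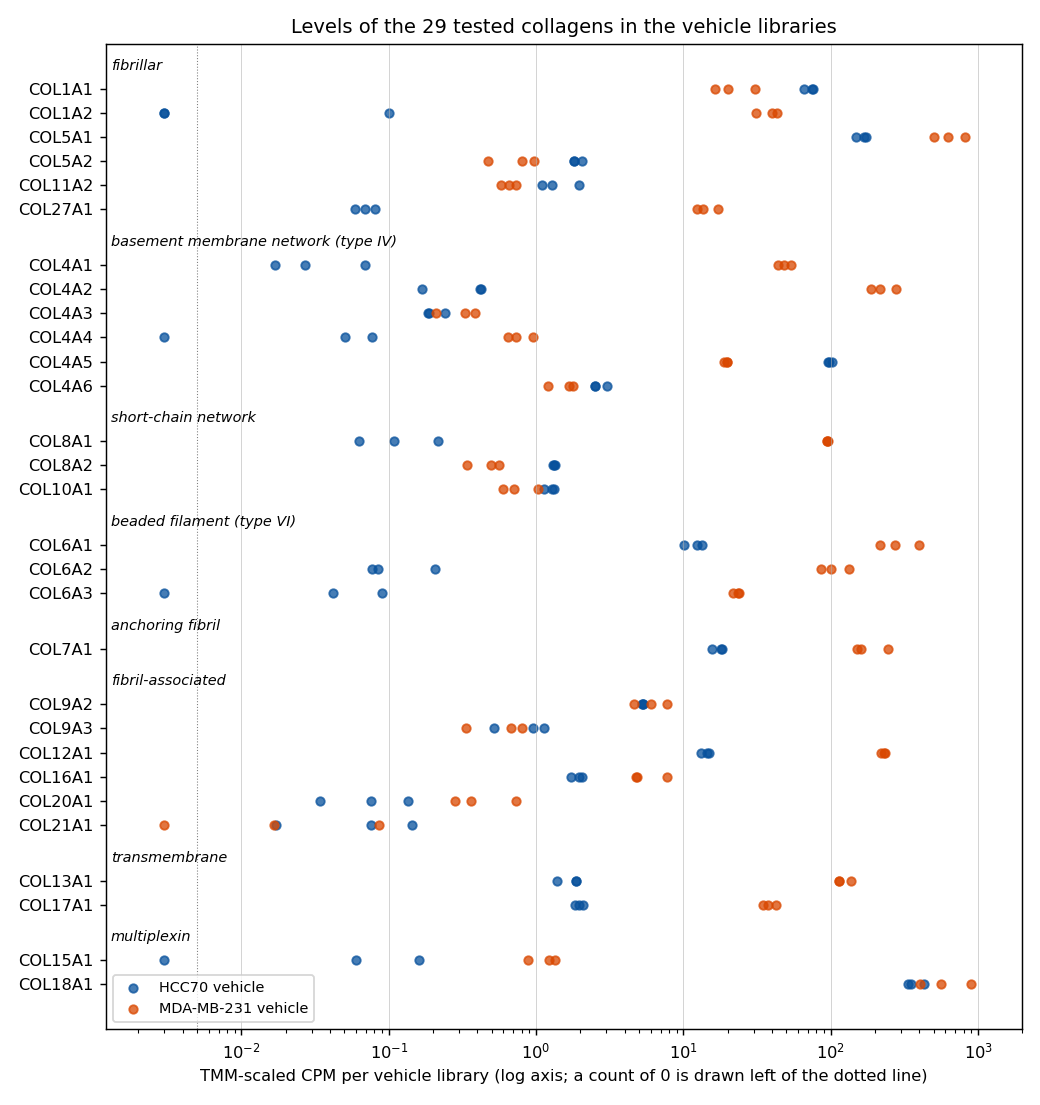
Level of each of the 29 tested collagens in the vehicle libraries, in TMM-scaled CPM on a log axis, grouped by structural class; each point is 1 library, blue for HCC70 and orange for MDA-MB-231, and a count of 0 is drawn left of the dotted line. Most members lie further right in MDA-MB-231, by several log10 units for COL1A2, COL4A1, COL4A2, COL6A2 and COL8A1, while COL1A1 and COL4A5 lie further right in HCC70.

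Per kilobase of exon, which allows levels of different genes to be set side by side, COL18A1 and COL5A1 led in both lines. In HCC70 vehicle COL18A1, whose product carries endostatin at its end, held 43.6 ± 5.69 CPM per kb (SD, n = 3). COL5A1 followed at 14.6 ± 1.13, COL4A5 at 8.24 ± 0.258, COL1A1 at 7.35 ± 0.578 and COL6A1 at 2.24 ± 0.316 CPM per kb. Each of these steps was well above the spread between libraries, except that from COL4A5 to COL1A1. In MDA-MB-231 vehicle COL18A1 held 72.7 ± 29.3, COL5A1 57.9 ± 14.2 and COL6A1 55.5 ± 17.6 CPM per kb, with ranges of mean ± SD that overlapped. The 3 genes shared part of this spread, each being highest in vehicle library 1. Within each vehicle library COL18A1 was the highest of them per kb. COL13A1 at 20.5 ± 2.29, COL6A2 at 19.7 ± 4.49, COL12A1 at 18.2 ± 0.542 and COL7A1 at 16.7 ± 4.68 CPM per kb followed. Their ranges of mean ± SD also overlapped, but COL13A1 exceeded COL12A1 by more than the SD of COL12A1. The order below the first 3 depends on the length used. With the longest transcript as the length, COL13A1 was at 38.0, COL4A2 at 34.7 in place of 11.7, COL6A2 at 30.7, COL7A1 at 19.95 and COL12A1 at 19.4 CPM per kb.

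Among the fibrillar collagens, all 6 tested members differed between the lines in vehicle, 3 in each direction. COL5A1, the main chain of type V collagen that sits in the core of fibrils, measured 149, 173 and 168 CPM in the HCC70 libraries and 819, 621 and 504 CPM in those of MDA-MB-231. Every MDA-MB-231 library lay above every HCC70 library, with a log2 difference of -1.99 ± 0.202 (SE; edgeR adjusted p = 4.08e-06). Its partner COL5A2 differed the other way, at 1.81, 1.81 and 2.05 CPM in HCC70 and 0.803, 0.961 and 0.473 CPM in MDA-MB-231 (edgeR adjusted p = 2.13e-05). Per kb, COL5A1 exceeded COL5A2 by 57.6 ± 5.22 times in HCC70 vehicle and 607 ± 153 times in MDA-MB-231 vehicle (SD, n = 3).

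The chains of type I collagen, the major fibre of connective tissue, were not matched in HCC70. COL1A1 measured 65.6, 74.9 and 75.9 CPM in the HCC70 vehicle libraries and 30.4, 19.9 and 16.3 CPM in those of MDA-MB-231. The lines did not overlap, and COL1A1 was higher in HCC70 by 1.70 ± 0.232 on the log2 scale (edgeR adjusted p = 6.00e-05). COL1A2 had 12 counts in HCC70 vehicle library 1 and 0 counts in the other 5 HCC70 libraries, beside 24981 counts of COL1A1 over the vehicle libraries. A count of 0 allows up to 0.027 CPM in vehicle library 2 and 0.0258 CPM in vehicle library 3, by a floor of 3 counts that covers counting error only. In the MDA-MB-231 vehicle libraries COL1A2 measured 43.2, 40.2 and 31.2 CPM, and the ratio of COL1A1 to COL1A2 per kb was 0.652 ± 0.128 (SD, n = 3). With the longest transcript as the length, this ratio was 0.512 ± 0.100. HCC70 RNA thus held the first chain with almost none of the second, while MDA-MB-231 held both, with less of the first per kb. COL27A1, a fibrillar chain known from cartilage, held 0.0695 CPM in HCC70 and 14.3 CPM in MDA-MB-231 on average.

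Of the 6 type IV chains, which form the basement membrane network, COL4A1 and COL4A2 were lower in HCC70, and COL4A5 and COL4A6 were higher in it. COL4A2 measured 20, 46 and 49 counts in the HCC70 vehicle libraries, a mean of 0.334 CPM, and 275, 215 and 187 CPM in those of MDA-MB-231. COL4A1 measured 2, 3 and 8 counts in the same HCC70 libraries, a mean of 0.0375 CPM, and 53.9, 47.9 and 43.9 CPM in MDA-MB-231. Both chains of the most widespread type IV molecule were thus near the detection limit in HCC70 and plain in MDA-MB-231 (edgeR adjusted p = 3.31e-10 for COL4A2 and 1.07e-13 for COL4A1). In MDA-MB-231 vehicle, COL4A2 exceeded COL4A1 by 3.53 ± 0.34 times per kb (SD, n = 3). COL4A5 went the other way, at 95.6, 96.5 and 101 CPM in HCC70 and 18.7, 19.8 and 19.8 CPM in MDA-MB-231. The lines were far apart and the replicates close together, with a log2 difference of 2.33 ± 0.0638 (SE; edgeR adjusted p = 2.14e-13). COL4A6, its neighbour on the X chromosome, was also higher in HCC70, with means of 2.68 and 1.56 CPM (edgeR adjusted p = 0.000195). COL4A5 exceeded COL4A6 per kb by 28.9 ± 3.49 times in HCC70 vehicle and 10.0 ± 1.87 times in MDA-MB-231 vehicle. COL4A4 was lower in HCC70, at 0.0425 against 0.777 CPM, and COL4A3, at 0.205 and 0.308 CPM, did not pass.

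Type IV genes lie in head-to-head pairs on opposite strands, and each pair shares a start region. The windows of 250 bases before to 50 bases after the start are shown for the pair that was low in HCC70 and the pair that was higher in it, from RefSeq on GRCh38.p14, 5′ to 3′ on the strand of each gene. Capitals mark the bases that the partner's window also covers, on the other strand. COL4A1 is chr13:110307108-110307407 (minus strand), COL4A2 chr13:110307034-110307333 (plus strand), COL4A5 chrX:108439588-108439887 (plus strand) and COL4A6 chrX:108439409-108439708 (minus strand).
COL4A1: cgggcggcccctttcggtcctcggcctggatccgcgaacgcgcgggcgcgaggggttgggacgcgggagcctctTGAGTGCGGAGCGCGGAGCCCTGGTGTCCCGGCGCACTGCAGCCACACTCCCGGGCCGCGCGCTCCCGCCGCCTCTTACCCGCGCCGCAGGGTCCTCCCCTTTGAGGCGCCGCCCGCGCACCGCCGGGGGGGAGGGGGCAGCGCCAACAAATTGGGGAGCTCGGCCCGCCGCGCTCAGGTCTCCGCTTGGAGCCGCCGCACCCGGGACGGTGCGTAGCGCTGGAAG
COL4A2: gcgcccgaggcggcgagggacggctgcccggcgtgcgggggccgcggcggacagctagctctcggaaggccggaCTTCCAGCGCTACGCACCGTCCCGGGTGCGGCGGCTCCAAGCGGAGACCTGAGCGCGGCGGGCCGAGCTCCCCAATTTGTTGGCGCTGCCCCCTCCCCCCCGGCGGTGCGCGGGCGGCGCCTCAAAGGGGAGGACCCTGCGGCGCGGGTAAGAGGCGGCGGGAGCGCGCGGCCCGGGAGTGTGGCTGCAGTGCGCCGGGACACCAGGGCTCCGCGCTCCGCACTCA
COL4A5: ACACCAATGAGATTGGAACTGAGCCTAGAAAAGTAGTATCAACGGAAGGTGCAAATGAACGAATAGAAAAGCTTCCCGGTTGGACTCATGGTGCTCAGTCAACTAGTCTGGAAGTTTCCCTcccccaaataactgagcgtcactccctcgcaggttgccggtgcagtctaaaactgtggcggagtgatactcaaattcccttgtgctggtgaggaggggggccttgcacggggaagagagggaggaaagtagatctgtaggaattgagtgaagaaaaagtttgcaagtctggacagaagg
COL4A6: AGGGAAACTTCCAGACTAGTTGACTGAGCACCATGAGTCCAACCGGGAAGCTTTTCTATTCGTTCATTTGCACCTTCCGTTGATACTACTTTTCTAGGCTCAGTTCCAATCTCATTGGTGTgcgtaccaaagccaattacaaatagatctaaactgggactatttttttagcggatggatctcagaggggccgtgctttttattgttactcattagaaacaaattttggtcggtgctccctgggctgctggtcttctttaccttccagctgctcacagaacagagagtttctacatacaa
The starts of COL4A1 and COL4A2 lay 127 bases apart and their windows shared 226 bases, of which 76.5% were G or C. Those of COL4A5 and COL4A6 lay 380 bases apart and shared 121 bases with 44.6% G or C, and another listed COL4A6 start lay 1416 bases away with no shared base. COL4A3 and COL4A4, whose starts lay 419 bases apart, shared 82 bases. The letters CCAAT, searched on both strands, matched 1 time in the COL4A1 and COL4A2 overlap and 2 times in that of COL4A5 and COL4A6. COL4A1 and COL4A2 were at 13 and 115 summed counts in HCC70 vehicle, against 17581 and 81725 in MDA-MB-231 vehicle. COL4A3 and COL4A4 were at 71 and 15 in HCC70 vehicle and at 112 and 279 in MDA-MB-231 vehicle. A link between the distance of the starts and the level was not tested.

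Type VI collagen, which forms beaded filaments beside basement membranes, was lower in HCC70 in all 3 tested chains. COL6A1 measured 10.1, 12.4 and 13.4 CPM in HCC70 vehicle and 400.2, 274 and 216 CPM in MDA-MB-231 vehicle (log2 difference -4.63 ± 0.305 SE, edgeR adjusted p = 2.02e-07). COL6A2 had 10, 23 and 9 counts and COL6A3 had 5, 10 and 0 counts in the HCC70 libraries, against means of 106.1 and 23.1 CPM in MDA-MB-231. HCC70 therefore held COL6A1 at 4141 summed vehicle counts with 42 of COL6A2 and 15 of COL6A3, although the type VI molecule uses a chain of each kind. In MDA-MB-231 vehicle, COL6A1 exceeded COL6A2 by 2.78 ± 0.248 times and COL6A3 by 47.0 ± 13.5 times per kb.

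The type VIII chains, short collagens that form hexagonal lattices, were exchanged between the lines. COL8A1 had 13, 7 and 25 counts in HCC70 vehicle, a mean of 0.129 CPM, and 94.2, 95.3 and 94.7 CPM in MDA-MB-231 vehicle. COL8A2 measured 1.31, 1.32 and 1.34 CPM in HCC70 and 0.494, 0.562 and 0.342 CPM in MDA-MB-231 (log2 difference 1.499 ± 0.176 SE, edgeR adjusted p = 2.17e-06). Per kb, the ratio of COL8A1 to COL8A2 was 0.0482 ± 0.0286 in HCC70 vehicle and 105.5 ± 28.4 in MDA-MB-231 vehicle (SD, n = 3). With the longest transcript as the length, these ratios were 0.0795 and 174. COL10A1, the hypertrophic cartilage chain of the same class, held 1.25 and 0.774 CPM.

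COL7A1, the chain of the fibrils that anchor the epidermal basement membrane, measured 15.5, 18.0 and 18.2 CPM in HCC70 vehicle and 245, 161 and 150 CPM in MDA-MB-231 vehicle. The lowest MDA-MB-231 library was many times the highest HCC70 library, with a log2 difference of -3.42 ± 0.242 (SE; edgeR adjusted p = 2.63e-07). COL12A1, which binds the surface of type I fibrils, measured 14.4, 14.96 and 13.1 CPM in HCC70 and 220, 230 and 233 CPM in MDA-MB-231 (-4.01 ± 0.0779 SE on the log2 scale, edgeR adjusted p = 6.91e-15). COL13A1, a transmembrane collagen of cell contacts, measured 1.88, 1.38 and 1.86 CPM in HCC70 and 137, 113 and 113 CPM in MDA-MB-231 (-6.14 ± 0.154 SE, edgeR adjusted p = 5.31e-13). COL17A1, the transmembrane collagen of hemidesmosomes, was also lower in HCC70, the line with high KRT5, at 1.956 against 38.2 CPM. COL16A1 at 1.92 against 5.79 CPM, COL20A1 at 0.0816 against 0.456 CPM and the basement membrane multiplexin COL15A1 at 0.0732 against 1.15 CPM followed the same direction.

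Of the 29, 5 did not pass between the lines: COL18A1, COL9A2, COL9A3, COL4A3 and COL21A1. COL18A1 measured 336, 352 and 427 CPM in HCC70 and 895, 558 and 407 CPM in MDA-MB-231, so the lines overlapped (log2 difference -0.74 ± 0.335 SE, edgeR adjusted p = 0.0669). It passed in 12 of 25 alternatives, at log2 differences from -1.32 with an offset for GC content and length (edgeR adjusted p = 4.83e-07) to -0.40 without the 2 high libraries (0.0495). COL9A2, at -0.21 without a call, passed in 3 of 25 alternatives, with that offset at -0.77 (edgeR adjusted p = 1.30e-07), with the replicate block and the offset (1.94e-06) and without MDA-MB-231 vehicle library 3 (-0.38, 0.0431). On the annotation used for lengths, 16.4% of the COL18A1 exon length overlaps SLC19A1 on the other strand, and the libraries keep no strand, so its count is uncertain. SLC19A1, a folate carrier gene, held 81.4 CPM in HCC70 vehicle and 99.7 CPM in MDA-MB-231 vehicle.

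With DEX in MDA-MB-231, 8 of the 29 collagens passed, 2 that rose and 6 that fell. Over all genes tested 14.6% passed, 6.65% higher and 7.96% lower. The median log2 fold change of the 29 was -0.46, beside -0.01 over all genes, and 20 of them were below 0. COL8A1 and COL12A1 rose, and COL7A1, COL1A1, COL16A1, COL27A1, COL8A2 and COL17A1 fell. Vehicle and DEX libraries did not overlap for any of these 8. Without the 2 high libraries, 11 passed, 2 that rose and 9 that fell, with 7 of the 8 among them, and calls over all genes also increased, to 20.3%. With the offset for GC content and length, 11 passed, 4 that rose and 7 that fell, again with 7 of the 8, beside 18.5% of all genes. Leaving out single libraries gave from 5 collagens without DEX library 1, where 8.45% of all genes passed, to 14 without vehicle library 3, where 20.1% did.

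**Figure D2:**
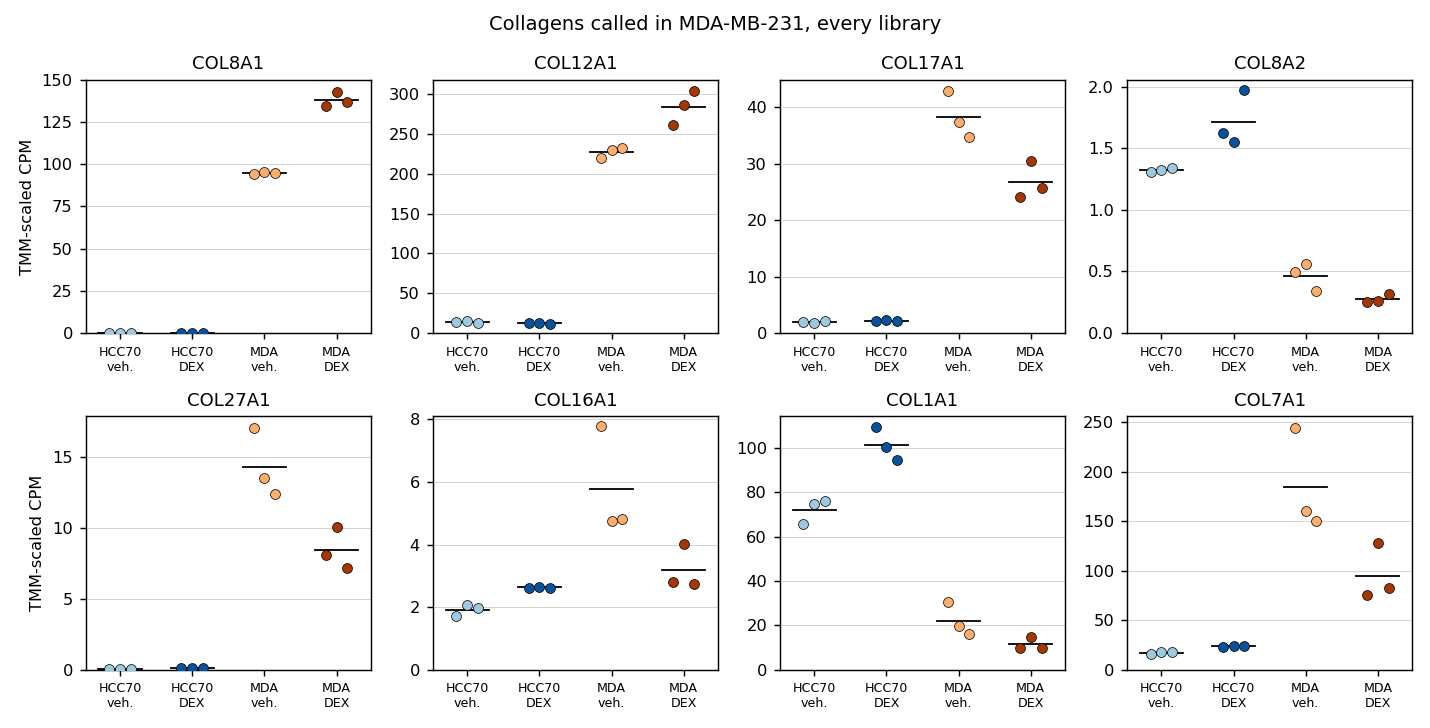
TMM-scaled CPM of the 8 collagens that passed with DEX in MDA-MB-231, in all 12 libraries; each point is 1 library, horizontal bars are group means, and MDA stands for MDA-MB-231 and veh. for vehicle. In MDA-MB-231 the DEX points of COL8A1 and COL12A1 lie above all vehicle points and those of the other 6 lie below them.

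COL8A1 measured 94.2, 95.3 and 94.7 CPM in vehicle and 134, 143 and 137 CPM with DEX, a rise of 0.54 ± 0.107 on the log2 scale (SE; edgeR adjusted p = 0.00387). COL12A1 measured 220, 230 and 233 CPM in vehicle and 262, 287 and 303 CPM with DEX, a rise of 0.32 ± 0.0685 (SE; edgeR adjusted p = 0.0062). For COL8A1 the gap between the groups was larger than the range within either. For COL12A1 the groups did not overlap, but the gap was smaller than the range of the DEX libraries. The partner of COL8A1 went the other way: COL8A2 measured 0.494, 0.562 and 0.342 CPM in vehicle and 0.253, 0.258 and 0.317 CPM with DEX, and fell by 0.76 ± 0.202 (SE; edgeR adjusted p = 0.0227). The ratio of COL8A1 to COL8A2 per kb was 105.5 ± 28.4 in vehicle and 251 ± 32.3 with DEX (SD, n = 3). The COL8A2 groups were close, and its call was lost in 8 of 24 alternatives, among them without vehicle library 1 (edgeR adjusted p = 0.0719), vehicle library 2 (0.101) or DEX library 1 (0.0919), without the 2 high libraries (0.0933) and with the GC offset (0.24).

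COL17A1 measured 42.8, 37.3 and 34.6 CPM in vehicle and 24.2, 30.5 and 25.6 CPM with DEX, and fell by 0.52 ± 0.0936 on the log2 scale (SE; edgeR adjusted p = 0.00181). COL27A1 measured 17.1, 13.5 and 12.4 CPM in vehicle and 8.12, 10.1 and 7.21 CPM with DEX, and fell by 0.76 ± 0.131 (SE; edgeR adjusted p = 0.00119). COL8A1, COL12A1, COL17A1 and COL27A1 passed in all 25 alternatives run for them. COL16A1, a fibril-associated chain, measured 7.79, 4.75 and 4.83 CPM in vehicle and 2.80, 4.00 and 2.73 CPM with DEX, and fell by 0.87 ± 0.19 (SE; edgeR adjusted p = 0.0082). Its highest DEX library, DEX 2, lay below its lowest vehicle library. COL16A1 lost its call when the 2 MDA-MB-231 groups were fitted alone (edgeR adjusted p = 0.103) and under no other alternative.

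COL7A1 and COL1A1 had the largest falls among the 8, and the widest spread. COL7A1 measured 245, 161 and 150 CPM in vehicle and 75.1, 128 and 82.4 CPM with DEX, and fell by 0.96 ± 0.22 on the log2 scale (SE; edgeR adjusted p = 0.0171). COL1A1 measured 30.4, 19.9 and 16.3 CPM in vehicle and 9.74, 14.9 and 9.64 CPM with DEX, and fell by 0.96 ± 0.232 (SE; edgeR adjusted p = 0.0221). In both genes vehicle library 1 was the highest vehicle library and DEX library 2 the highest DEX library. Without DEX library 1 the edgeR adjusted p was 0.0654 for COL7A1 and 0.0907 for COL1A1, and without DEX library 3 it was 0.0712 and 0.0863. Each lost its call in 4 of 25 alternatives, and the replicate block was one of them for COL7A1 (edgeR adjusted p = 0.051).

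The other collagens of MDA-MB-231 gave values without a call. COL1A2, the partner of COL1A1, had means of 38.2 CPM in vehicle and 23.6 CPM with DEX and groups that did not overlap (log2 fold change -0.69 ± 0.222 SE, edgeR adjusted p = 0.076), and passed in 9 of 25 alternatives, such as the replicate block (edgeR adjusted p = 0.0315). COL5A1 measured 819, 621 and 504 CPM in vehicle and 343, 563 and 406 CPM with DEX, with overlap between DEX library 2 and vehicle library 3 (-0.57 ± 0.195 SE, edgeR adjusted p = 0.0803). COL5A1 passed in 8 of 25 alternatives, among them DESeq2 (adjusted p = 0.0107), limma voom (0.0407) and, at -0.28, the GC offset in edgeR (0.0334). COL13A1 measured 137, 113 and 113 CPM in vehicle and 93.4, 109 and 86.9 CPM with DEX (-0.33 ± 0.118 SE, edgeR adjusted p = 0.0821). All 6 tested fibrillar chains had fold changes below 0, and 2 passed. Of the 6 type IV chains, 5 were above 0 and none passed, the lowest edgeR adjusted p being 0.12, for COL4A5. None of the 3 type VI chains passed, and COL6A2 changed sign with the GC offset.

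In HCC70, no collagen passed with DEX in edgeR, while 3.96% of all genes tested did, 2.55% higher and 1.4% lower. At an unadjusted p under 0.05 there were 8 of 29, beside 18.3% of all genes, and DESeq2's Wald test called 1, COL4A6. The median log2 fold change of the 29 was 0.36, beside -0.01 over all genes, with 20 above 0 and 9 below; it was the same with COL1A2 set at the bound that its 0 counts with DEX allow. This result changed with libraries of the other line. When the HCC70 groups were fitted alone, 11 of 22 tested collagens passed, 10 that rose and 1 that fell, and calls over all genes also increased, to 19.1%. Without the 2 high libraries of MDA-MB-231, 9 of 31 passed, all higher with DEX, beside 13.5% of all genes. The fold changes themselves moved little between these fits: COL1A1 was at 0.49 in each, with an edgeR adjusted p of 0.281 over 12 libraries, 0.000144 with HCC70 alone and 0.00148 without the 2 libraries.

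The collagens with most RNA in HCC70 had DEX libraries above all vehicle libraries. COL18A1 measured 336, 352 and 427 CPM in vehicle and 619, 546 and 514 CPM with DEX (log2 fold change 0.59 ± 0.335 SE, edgeR adjusted p = 0.382). COL5A1 measured 149, 173 and 168 CPM in vehicle and 229, 213 and 203 CPM with DEX (0.40 ± 0.195 SE, edgeR adjusted p = 0.31). COL1A1 measured 65.6, 74.9 and 75.9 CPM in vehicle and 109, 101 and 94.5 CPM with DEX (0.49 ± 0.225 SE). For these 3 the groups did not overlap. COL4A6 had the lowest adjusted p, at 2.50, 3.03 and 2.50 CPM in vehicle and 3.83, 3.44 and 3.88 CPM with DEX (0.47 ± 0.139 SE, edgeR adjusted p = 0.0833). It passed without MDA-MB-231 vehicle library 1 (edgeR adjusted p = 0.022). COL4A5 measured 95.6, 96.5 and 101 CPM in vehicle and 113, 104 and 109.5 CPM with DEX (0.16 ± 0.0604 SE), and was the 1 collagen called with the GC offset (0.17, edgeR adjusted p = 0.0369).

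COL12A1 was the only collagen of HCC70 with a mean above 1 CPM whose DEX libraries all lay below the vehicle libraries, at 14.4, 14.96 and 13.1 CPM in vehicle and 12.7, 12.5 and 11.8 CPM with DEX (log2 fold change -0.20 ± 0.0708 SE, edgeR adjusted p = 0.156). COL8A1, which rose in MDA-MB-231, stayed at 6 to 25 counts per library in HCC70 with either treatment. COL1A2 had 0 counts in the 3 DEX libraries. The summed collagen level was 706.5 to 839 CPM in vehicle and 999.6 to 1152 CPM with DEX in HCC70, without overlap, and 2186 to 3470 and 1719 to 2610 CPM in MDA-MB-231, with overlap. COL18A1, whose count is uncertain as given above, made 46.1% to 53.7% of this sum in the HCC70 libraries and 13.4% to 25.8% in those of MDA-MB-231. SLC19A1, which overlaps it, held means of 81.4 CPM in vehicle and 110.0 CPM with DEX in HCC70, and 99.7 and 66.3 CPM in MDA-MB-231, so it lay in the same direction as COL18A1 in both lines. Beside these values, the sum of 5 epithelial markers was 4369 to 4523 CPM in HCC70 vehicle and 5770 to 6400 CPM with DEX, mostly from the keratin gene KRT19, and its part in the collagen values was not tested.

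**Figure D3:**
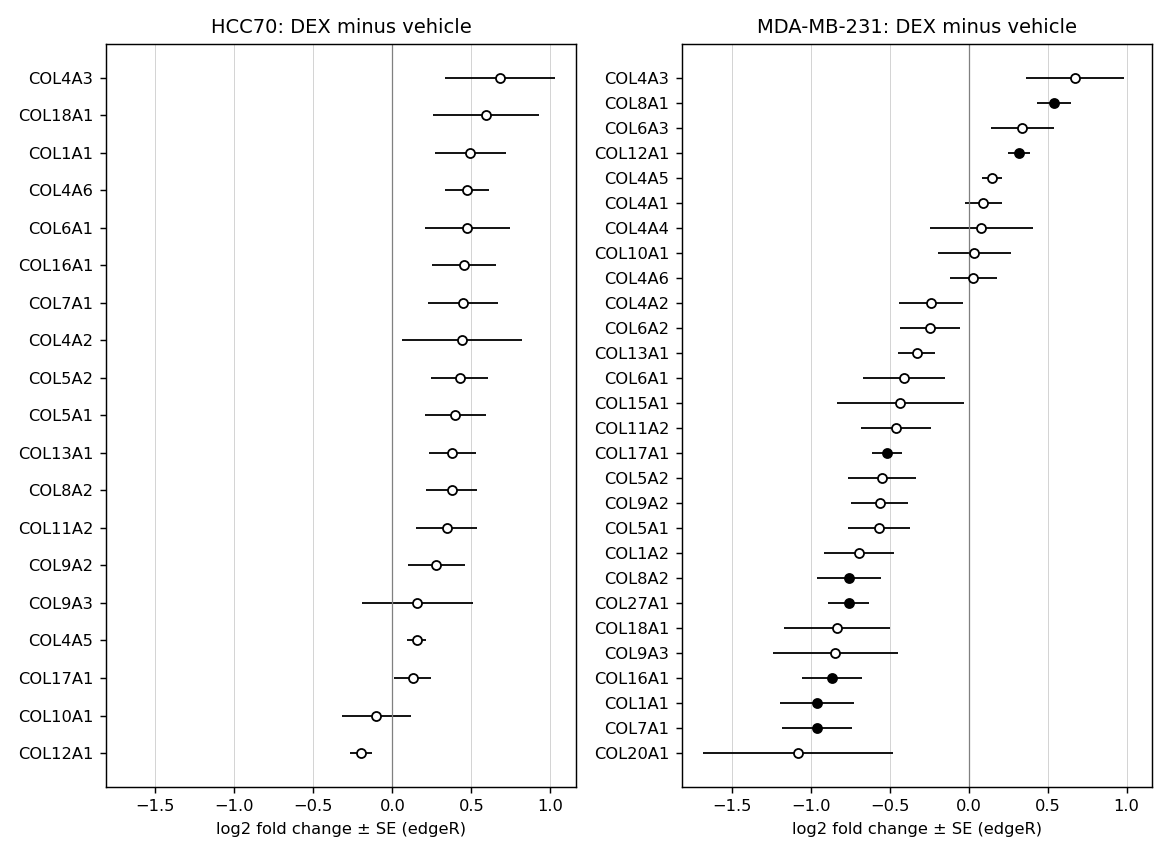
Log2 fold change of collagens, DEX minus vehicle, with its SE from the edgeR fit to 12 libraries; 19 collagens are shown for HCC70 and 28 for MDA-MB-231, those with a mean of at least 0.25 CPM in either group, and filled points passed an adjusted p of 0.05. No point is filled in HCC70, where all but COL10A1 and COL12A1 lie above 0, and 8 are filled in MDA-MB-231, with COL8A1 and COL12A1 above 0 and the other 6 below.

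The difference between the lines' responses was tested directly as the HCC70 response minus the MDA-MB-231 response. It passed for 10 of 29 collagens, 9 higher and 1 lower in HCC70, where 12.1% of all genes tested passed, 6.96% higher and 5.09% lower. The median difference was 0.80 on the log2 scale for the 29 and -0.01 for all genes. With the GC offset it was 0.28 for the 29 and -0.01 for all genes. With the GC offset 9 passed, 7 higher and 2 lower, beside 13.9% of all genes, and without the 2 high libraries 14 passed, 12 higher and 2 lower, beside 21.7%. Leaving out single libraries gave from 4 collagens without HCC70 vehicle library 1, where 5.62% of all genes passed, to 14 without MDA-MB-231 DEX library 2, where 21.8% did. COL12A1 was the lower one, at -0.52 ± 0.0985 (SE; edgeR adjusted p = 0.00452), with all HCC70 DEX libraries below vehicle and all MDA-MB-231 DEX libraries above. COL16A1 measured 1.73, 2.06 and 1.97 CPM in HCC70 vehicle and 2.62, 2.65 and 2.62 CPM with DEX, against its fall in MDA-MB-231, a difference of 1.32 ± 0.276 (SE; edgeR adjusted p = 0.00957). COL12A1 and COL16A1 passed in all 24 alternatives run for this difference.

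For the others the call was less stable. COL1A1 differed by 1.45 ± 0.323 (SE; edgeR adjusted p = 0.0205) and COL7A1, at 15.5, 18.0 and 18.2 CPM in HCC70 vehicle and 22.9, 23.8 and 23.7 CPM with DEX, by 1.41 ± 0.314 (SE; edgeR adjusted p = 0.0206). Both lost the call without HCC70 vehicle library 1 (edgeR adjusted p = 0.0597 and 0.0599), without MDA-MB-231 DEX library 3 (0.0538 and 0.0536) and with the replicate block (0.0502 and 0.06), and COL1A1 also without MDA-MB-231 DEX library 1 (0.0546). COL17A1 differed by 0.64 ± 0.148 (SE; edgeR adjusted p = 0.0145), from 1.963, 1.84 and 2.07 CPM in HCC70 vehicle and 2.14, 2.24 and 2.04 CPM with DEX, which overlapped, and lost the call with the replicate block (0.0566). COL8A2, at 1.31, 1.32 and 1.34 CPM in HCC70 vehicle and 1.63, 1.55 and 1.97 CPM with DEX, differed by 1.13 ± 0.258 (SE; edgeR adjusted p = 0.0136) and lost the call with the block (0.0596) and with the GC offset (0.246).

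COL27A1 differed by 1.64 ± 0.413 (SE; edgeR adjusted p = 0.0222), but its HCC70 side rests on 0.0587, 0.081 and 0.0687 CPM in vehicle and 0.107, 0.136 and 0.143 CPM with DEX. It lost the call with limma voom (adjusted p = 0.106) and, in edgeR, without HCC70 vehicle library 1 (0.0728), DEX library 2 (0.0576) or DEX library 3 (0.0668). COL13A1, COL5A1 and COL5A2 differed by 0.71 ± 0.189, 0.97 ± 0.276 and 0.98 ± 0.281 (SE; edgeR adjusted p = 0.0316, 0.0479 and 0.0391). They lost the call in 11 of 24, 12 of 24 and 12 of 23 alternatives, with edgeR adjusted p of up to 0.398, 0.118 and 0.0981. Of the fits without 1 library, COL5A1 passed only without MDA-MB-231 vehicle 3 or DEX 2, and COL5A2 only without those or HCC70 vehicle 3 or DEX 1. COL13A1 lost the call without any 1 of HCC70 vehicle 1 or 2, HCC70 DEX 1 or 2 and MDA-MB-231 DEX 1 or 3. COL13A1 measured 1.88, 1.38 and 1.86 CPM in HCC70 vehicle and 2.19, 2.53 and 1.95 CPM with DEX. COL5A2 measured 1.81, 1.81 and 2.05 CPM in HCC70 vehicle and 2.19, 2.80 and 2.63 CPM with DEX, and 0.475, 0.517 and 0.542 CPM in MDA-MB-231 with DEX, where vehicle had 0.803, 0.961 and 0.473 CPM. COL8A1 differed by -1.22 ± 0.384 (SE) and did not pass (edgeR adjusted p = 0.0554).

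Collagen transcripts are rich in G and C, with a median of 55.2% over the 29 tested against 49.2% over all genes with a value. In these libraries the deviation of genes from the mean of their line followed GC content, as Spearman's rank correlation over 15527 genes in each library. The correlation was -0.60, -0.32 and -0.14 in HCC70 vehicle and 0.50, 0.37 and 0.35 in HCC70 with DEX. It was 0.68, 0.17 and -0.23 in MDA-MB-231 vehicle and -0.52, 0.26 and -0.50 with DEX. Across the 29 collagens, which share these libraries, the rank correlation of GC content with the DEX fold change was 0.37 in HCC70 and -0.53 in MDA-MB-231. Over the 15527 genes it was 0.50 and -0.45. After an offset for GC content and length fitted over all genes, the rank correlation across the 29 collagens was 0.08 and -0.24. The offset is made to remove the GC trend, so a weaker correlation after it is built in. Their median fold change went from 0.36 to 0.10 in HCC70 and from -0.46 to -0.11 in MDA-MB-231. The rises of COL8A1 and COL12A1, whose transcripts hold 47.8% and 46.6% G and C, were 0.54 and 0.32 with the offset, as without it. Both lie near the median of 49.2% over all genes, so their unchanged values say little about the GC trend. COL17A1, COL27A1, COL16A1, COL1A1 and COL7A1 passed with the offset at -0.42, -0.47, -0.46, -0.62 and -0.48, smaller falls than without it.

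**Figure D4:**
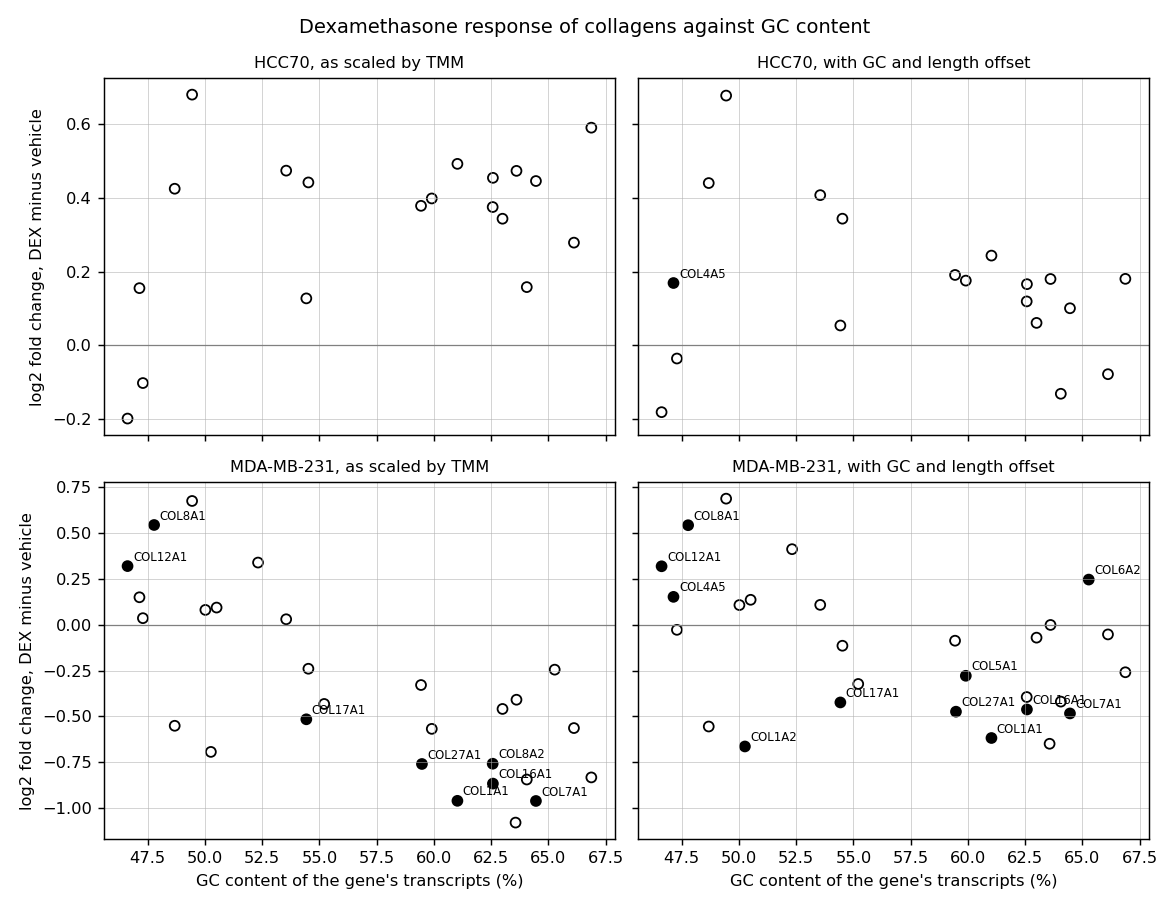
DEX log2 fold change of collagens against the GC content of their transcripts, in HCC70 (top) and MDA-MB-231 (bottom), with TMM scaling (left) and with the added offset for GC content and length (right); filled, named points passed an adjusted p of 0.05, and members with a mean of at least 0.25 CPM are shown. The slope seen on the left, upward in HCC70 and downward in MDA-MB-231, is flatter on the right, as the offset is made to do. COL8A1 and COL12A1, near the median GC content of all genes, keep their height.

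Collagens need other gene products to fold, to be trimmed, to be crosslinked and to be sensed, and 43 such genes were examined, of which 40 were tested. Between the lines in vehicle 35 of 40 passed, 13 higher and 22 lower in HCC70, where 79.2% of all genes tested passed, 39.2% higher and 40% lower. All 5 lysyl oxidases, the enzymes that crosslink collagen, were lower in HCC70: LOXL4 at 0.0633 against 141 CPM, LOXL2 at 42.8 against 479 CPM and LOX at 3.88 against 77.3 CPM, with LOXL1 and LOXL3 behind. GLT25D2, a collagen galactosyltransferase, held 0.152 against 9.82 CPM. FKBP10, a collagen chaperone of the endoplasmic reticulum, went the other way, at 165, 171 and 184 CPM in HCC70 vehicle and 0.0837, 0.156 and 0.201 CPM in MDA-MB-231 vehicle (log2 difference 10.20 ± 0.272 SE, edgeR adjusted p = 1.30e-11). The line with the higher collagen sum was thus the one with almost no FKBP10 RNA. Of the 19 genes of folding and modification 16 passed, 8 in each direction, and all 7 tested genes of propeptide removal passed, 2 higher and 5 lower.

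With DEX, LOX rose in both lines. It measured 4.09, 3.79 and 3.75 CPM in HCC70 vehicle and 6.24, 6.34 and 5.90 CPM with DEX, a rise of 0.67 ± 0.0633 on the log2 scale (SE; edgeR adjusted p = 2.69e-05). In MDA-MB-231 it measured 73.2, 81.0 and 77.9 CPM in vehicle and 154, 152 and 159 CPM with DEX, a rise of 1.00 ± 0.0576 (SE; edgeR adjusted p = 2.77e-08). The replicates were close and the groups far apart in both lines, and the difference of the responses passed at -0.33 (edgeR adjusted p = 0.0242). In HCC70 2 of the 40 passed, beside 3.96% of all genes, and the other call was ADAMTS3, a procollagen protease at 0.118 CPM in vehicle and 0.039 CPM with DEX.

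In MDA-MB-231, 4 of the 40 rose and 4 fell, beside 6.65% higher and 7.96% lower over all genes tested. ITGA10, a collagen-binding integrin subunit, measured 2.56, 3.32 and 2.86 CPM in vehicle and 12.9, 16.2 and 14.2 CPM with DEX, a rise of 2.31 ± 0.162 (SE; edgeR adjusted p = 2.64e-07). ITGA2, the integrin subunit for collagen on epithelial cells, measured 108.5, 132 and 137 CPM in vehicle and 79.5, 75.9 and 80.6 CPM with DEX, and fell by 0.68 ± 0.0786 (SE; edgeR adjusted p = 3.66e-05). These receptors of the same ligand family thus went opposite ways, each without overlap. ADAMTS14, another procollagen protease, rose from 13.1, 11.3 and 9.14 CPM to 17.1, 33.7 and 20.8 CPM, with DEX library 2 far above the others (1.09 ± 0.251 SE, edgeR adjusted p = 0.0162). P4HA3, a subunit of prolyl hydroxylase, rose from a mean of 17.95 to 23.2 CPM. LEPREL4, LEPREL1 and LOXL2 fell, from 6.555 to 4.15, from 70.5 to 57.7 and from 479 to 369.6 CPM, the last with overlap between the groups.

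**Figure D5:**
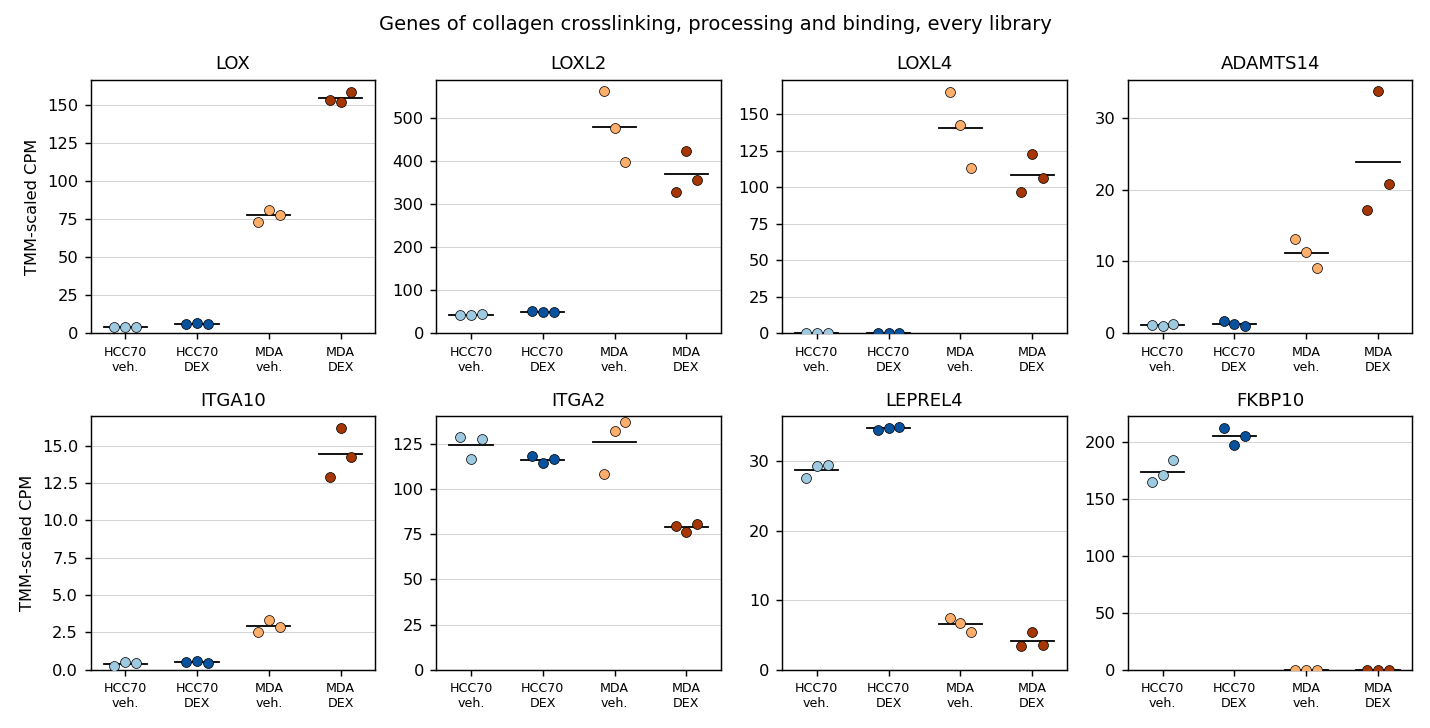
TMM-scaled CPM of 8 genes of collagen crosslinking, trimming, folding and binding in all 12 libraries; each point is 1 library, horizontal bars are group means, and MDA stands for MDA-MB-231 and veh. for vehicle. LOX lies higher with DEX in both lines, ITGA10 rises and ITGA2 falls in MDA-MB-231, and FKBP10 lies near 0 in MDA-MB-231.

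Promoter windows of 300 bases were at hand in the RefSeq table for 31 of the 43 collagens, 43 windows in all. None was at hand for COL8A1 and COL1A1, which passed with DEX in MDA-MB-231, or for COL1A2, COL5A2 and COL6A1, so these were not searched. The glucocorticoid receptor's palindrome, searched as GNACA and TGTNC with 3 bases of any kind between, which reads the same on both strands, was in none of the 43, and in 137 of 35116 windows of all genes, 0.39%. CCAAT was in 14 of 43 (32.6%) against 34.6% of all windows, TATAAA in 8 (18.6%) against 11.5%, and the GC box core GGGCGG in 24 (55.8%) against 45%, each on both strands. A match or its lack here describes these letters in this window and nothing more.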

How the data were processed

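RNA of 12 cell line libraries was sequenced as non-stranded, polyA-selected, transposase-made libraries of paired 50-base reads, per the labels' protocols. The authors deposited whole-number counts per gene in 1 table; hg19, TopHat 1.4.1, Cufflinks 1.3.0 and bedtools are named per the submitters' processing notes, without their roles. Samples were grouped by line and treatment, from the labels.

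Genes were kept by filterByExpr at a minimum count of 10 (28141 of 51838). Counts were scaled by TMM and fitted with edgeR 4.0.16 in R 4.3.3 (robust quasi-likelihood, 1 mean per group, all 12 libraries); p-values are two-sided and Benjamini-Hochberg adjusted over the 28141 genes and called at 0.05. SE is the log2 fold change divided by the square root of F. The procedure was tested on simulated data. Length and GC content came from GENCODE 29 transcripts (GRCh38, used for these only); 89.8% of tested genes had a value, and all 29 tested collagens did. Levels per kb use the union of exons. This depth leaves counting error small for genes above 1 CPM. Floors cover counting error only, while the SE also takes in the spread among libraries. Alternatives were other scalings and filters, DESeq2 1.42.0, limma 3.58.1 voom, the GC and length offset, the replicate number as a block, single groups' fits and left-out libraries; leaving out MDA-MB-231 vehicle 1 and DEX 2 together was added after seeing the data.

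Values in every library are given for collagens that passed with DEX or in the difference of responses, and, between lines, for the 6 highest in each line among those that passed; others were named by class. List genes were named up to 5 per comparison by size of change. Members and lists were chosen with earlier results of these data known. COL26A1 was not analysed here.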

Additional observations from a re-analysis of the deposited data

Results flagged for a closer look

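The response to DEX differed between the lines, by edgeR's test of the difference itself, for 10 of the 29 tested collagens and for 7 of the 40 tested genes that fold, trim, crosslink or bind collagen, of which 5 are named by the size of the difference. Over all genes tested 12.1% passed. All values are log2, HCC70 response minus MDA-MB-231 response. Among the fibrillar chains the difference was 1.452 for COL1A1, 0.9661 for COL5A1, 0.9758 for COL5A2 and 1.644 for COL27A1. It was 1.406 for COL7A1, 1.133 for COL8A2, 1.32 for COL16A1, 0.7074 for COL13A1 and 0.6429 for COL17A1. COL12A1 was the collagen with a value below 0, at -0.5178. Among the other genes it was 0.5803 for BMP1, the procollagen C-proteinase, 0.9342 for LEPREL4, 0.5817 for LOXL2 and 0.5797 for ITGA2, all higher in HCC70, and -1.856 for ITGA10. Beside these values, Spearman's rank correlation of library deviation with GC content was above 0 in all 3 HCC70 DEX libraries. It was below 0 in 2 of 3 MDA-MB-231 DEX libraries. With the offset for GC content and length 9 collagens passed in place of 10, and the median of the 29 went from 0.80 to 0.28. COL13A1 (0.278) and COL8A2 (0.513) lost the call, and COL8A1 passed at -1.20 (edgeR adjusted p = 0.0461).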

How the results depend on the processing

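Between the lines in vehicle, the count of 24 of 29 tested collagens was 17 to 26 under the alternatives. The 17 were of 18 tested, with a filter of 5 CPM in 3 libraries. With DEX in HCC70, the count of 0 became 1 with DESeq2's Wald test, 1 with the GC and length offset, 11 with the 2 HCC70 groups fitted alone and 9 without MDA-MB-231 vehicle 1 and DEX 2, and was 0 to 1 when single libraries were left out, the 1 without MDA-MB-231 vehicle 1. With DEX in MDA-MB-231, the count of 8 became 5 with the 2 groups alone and 5 to 14 when single libraries were left out, 14 without vehicle 3 and 5 without DEX 1. For the difference of the responses, the count of 10 was 4 to 14 when single libraries were left out: 4 without HCC70 vehicle 1, 5 without MDA-MB-231 DEX 3, 6 without HCC70 DEX 2 or MDA-MB-231 DEX 1, and 14 without MDA-MB-231 DEX 2. The fold change of COL6A2 in MDA-MB-231, which was -0.24 without a call, became 0.246 with the GC offset (edgeR adjusted p = 0.0182) and 0.245 with the block and that offset (0.0482). Apart from the fits that leave out libraries or groups, the cause of these changes was not tested. Over all genes, calls with DEX in HCC70 went from 1114 to 1679 with DESeq2, 2035 with the GC offset, 3867 without the 2 libraries and 4828 with HCC70 alone. In MDA-MB-231 they went from 4110 to 2116 with its groups alone, 5215 with the GC offset and 5785 without the 2 libraries. For the difference they went from 3391 to 6206 without the 2 libraries. Between the lines they went from 22294 of 28141 genes tested to 11980 of 13796 with the 5 CPM filter, so the share that passed went from 79.2% to 86.8%. Single left-out libraries moved these counts both ways. In HCC70 they gave 510 to 610 without HCC70 vehicle 1 or 2 or any 1 of its DEX libraries, and 1775 without MDA-MB-231 vehicle 1. In MDA-MB-231 they gave 2424 without DEX 1, 2463 without DEX 3 and 6452 without DEX 2. For the difference they gave 1614 to 2144 without HCC70 vehicle 1 or 2, any 1 HCC70 DEX library or MDA-MB-231 DEX 1 or 3, 5789 without MDA-MB-231 vehicle 3 and 6259 without MDA-MB-231 DEX 2. With library size as the only scaling, the median of all genes in the difference was -0.13 in place of -0.01. Of the 29 collagens, 20 were above 0 there in place of 22, as they were with DESeq2 size factors and with upper quartile scaling, and 19 were with the GC offset.

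Replicate numbers are shared by the groups, but no label says that they mark a shared culture or day. Same-numbered vehicle and DEX libraries deviated from their group means with correlations of -0.16, 0.09 and 0.01 in HCC70 and -0.51, -0.21 and 0.25 in MDA-MB-231, and 1 of the 6 DEX libraries correlated best with its own number, so the numbers were not taken as pairs. With the replicate block, 0 collagens passed in HCC70, 7 in MDA-MB-231, 24 between the lines and 4 for the difference of the responses, of which 3 were among the 10. Over all genes the block gave 481, 2551 and 1480 calls in HCC70, in MDA-MB-231 and for the difference.

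Depth limits the collagens under about 1 CPM. Among these, COL27A1, COL4A1, COL4A2, COL6A2, COL6A3 and COL8A1 in HCC70 had at most 59 counts per library. The SE of their DEX fold changes there was 0.369 to 1.07 on the log2 scale. COL15A1, COL20A1, COL21A1, COL4A3, COL4A4 and COL9A3 were also under 1 CPM in HCC70, with an SE of 0.348 to 0.988. COL1A2 had the largest SE there, 2.66.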

Other observations

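Of the 9 tested genes that sense or take up collagen, 7 passed between the lines in vehicle, 3 higher and 4 lower in HCC70, with a median log2 difference of -0.02, beside 79.2% called and a median of -0.03 over all genes tested. DDR1, the collagen receptor kinase of epithelial cells, held 867 CPM in HCC70 and 165 CPM in MDA-MB-231 on average (edgeR adjusted p = 2.10e-05), and DDR2, its counterpart in mesenchymal cells, held 0.325 and 0.527 CPM. MRC2, a receptor that takes up collagen for breakdown, was lower in HCC70, at 7.44 against 57.5 CPM (edgeR adjusted p = 1.77e-07). ITGB1, the integrin partner subunit, held 1135 and 784 CPM. So the line with less collagen RNA in sum held more RNA of DDR1 and less of MRC2.

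The prolyl 3-hydroxylase complex was also divided: LEPRE1 and CRTAP held 27.3 and 32.2 CPM in HCC70 vehicle against 148 and 154 CPM in MDA-MB-231 vehicle (edgeR adjusted p = 5.06e-14 and 5.52e-14), while the other member PPIB held 79.0 and 64.2 CPM. The transcripts of COL4A2-AS1 and COL4A2-AS2, antisense to COL4A2, were at 10.6 and 5.74 CPM in MDA-MB-231 vehicle and at 16 and 0 summed counts in HCC70 vehicle; the libraries keep no strand, so reads where they overlap COL4A2, at most 0.42% of its exon length, cannot be assigned.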
